A study of Mus musculus with 15 samples.

Results

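The nuclear genes of the mitochondrial respiratory chain and ATP synthase were followed in inflamed ear skin. They were taken as the protein-coding nuclear genes whose mouse GENCODE symbol starts with Nduf, Uqcr, Sdha, Sdhb, Sdhc, Sdhd, Cox4, Cox5, Cox6, Cox7, Cox8 or Atp5. That rule gave 98 annotated genes, of which 97 were among the 48795 genes of the deposited tables. The other, a second annotated copy of Atp5o, was not analysed here. The 97 comprised 85 genes counted as subunits and 12 assembly factors, 8 named Ndufaf for complex I and 4 named Sdhaf for complex II. By complex, and with assembly factors included, 46 belonged to complex I, 8 to complex II, 8 to complex III, 18 to complex IV and 17 to complex V.

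All 15 libraries were made from polyA RNA of ear tissue from female mice aged 5 weeks, in a model of ear inflammation raised with PMA, a phorbol ester that irritates skin by switching on protein kinase C. Control (n = 5 libraries) is labelled as the control treatment. PMA_ethanol (n = 4) is named for PMA and ethanol, and PMA_1002 (n = 6) for PMA and the innate defense regulator peptide that the study's title names. The PMA_1002 label does not name ethanol, so the peptide and the absence of that solvent cannot be told apart. The sources used here do not give doses, times, strain or what the control ears received. Whether each library is a mouse of its own is not said in the labels. Any p-value therefore reflects how far these libraries differ among themselves, which may be technical. The 3 comparisons share libraries, and their results for one gene are therefore not independent of each other.

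In the respiratory chain, complex I (NADH dehydrogenase) and complex II (succinate dehydrogenase) pass electrons to ubiquinone, complex III (cytochrome bc1) hands them to cytochrome c, and complex IV (cytochrome c oxidase) passes them to oxygen. Complexes I, III and IV pump protons, and complex V (ATP synthase) uses the proton gradient to make ATP. Most subunits are encoded in the nucleus and assembled with a small set encoded in mitochondrial DNA, and striated muscle is known for its own isoforms of several complex IV subunits. Transcription factors known to act on many of these genes include NRF1, the ETS factor GABP, YY1 and the estrogen-related receptors (ERR).

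Promoter windows from RefSeq (GRCm38.p6, 300 bases, from 250 before a gene's start to 50 after it) were available for 78 of the 97 genes. The letters searched, on both strands, were GCGCA and GCGC with any 1 base between them for NRF1, ACCGGAAG for ETS factors, AAGATGGCG for YY1, AAGGTCA for ERR and CACGTG for an E-box. The NRF1 letters stood in 25.6% of the members' windows, in 9.37% of the windows of the genes tested for expression and in 4.78% of all windows in the table. For ETS the shares were 8.97%, 4.33% and 2.34%, for YY1 8.97%, 2.9% and 1.49%, and for ERR 10.3%, 3.11% and 4.66%. E-box letters were found in 6.41% of members, 9.85% of genes tested and 7.24% of all windows. 5 stretches are printed, each the 250 bases before the RefSeq start, 5′ to 3′ on the gene's strand, with matched letters in capitals; no annotated exon lies in any of them, which held for 19 of the 78 windows. Ndufaf4 (chr4:24897833-24898082, plus strand, NRF1 letters), Ndufb6 (chr4:40279422-40279671, minus strand, ETS letters) and Atp5g3 (chr2:73911327-73911576, minus strand, E-box and ERR letters) are shown as genes that rose in PMA_ethanol against Control and whose windows hold letters. The other genes that rose and had a window, among them Ndufa4, Uqcrfs1 and Cox5a, hold none of the letters in it. The 300-base window of Atp5g3 also holds NRF1 letters, which reach past the 250 bases printed. Cox7a2l (chr17:83514334-83514583, minus strand, within an intron of the longer GENCODE gene model) is shown because it fell, and Cox8b (chr7:140900447-140900696, minus strand) because it is a muscle isoform; neither stretch holds any of the letters.

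Ndufaf4: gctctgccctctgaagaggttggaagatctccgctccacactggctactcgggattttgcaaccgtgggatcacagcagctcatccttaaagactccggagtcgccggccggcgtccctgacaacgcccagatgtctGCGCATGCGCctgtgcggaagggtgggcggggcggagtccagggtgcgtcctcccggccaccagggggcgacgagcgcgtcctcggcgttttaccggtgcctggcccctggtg
Ndufb6: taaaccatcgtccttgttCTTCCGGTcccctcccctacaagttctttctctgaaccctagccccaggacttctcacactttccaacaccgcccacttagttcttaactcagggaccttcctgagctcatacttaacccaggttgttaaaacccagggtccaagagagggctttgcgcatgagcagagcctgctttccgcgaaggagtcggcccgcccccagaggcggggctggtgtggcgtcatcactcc
Atp5g3: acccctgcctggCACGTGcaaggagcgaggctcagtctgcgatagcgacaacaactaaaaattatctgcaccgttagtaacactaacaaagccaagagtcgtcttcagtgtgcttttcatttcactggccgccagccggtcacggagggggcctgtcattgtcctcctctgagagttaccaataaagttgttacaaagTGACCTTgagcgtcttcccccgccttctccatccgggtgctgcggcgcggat
Cox7a2l: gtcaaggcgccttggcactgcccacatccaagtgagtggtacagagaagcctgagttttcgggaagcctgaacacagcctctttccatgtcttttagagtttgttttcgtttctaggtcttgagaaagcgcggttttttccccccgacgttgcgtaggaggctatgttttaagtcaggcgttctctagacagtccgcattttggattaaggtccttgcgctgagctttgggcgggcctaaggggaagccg
Cox8b: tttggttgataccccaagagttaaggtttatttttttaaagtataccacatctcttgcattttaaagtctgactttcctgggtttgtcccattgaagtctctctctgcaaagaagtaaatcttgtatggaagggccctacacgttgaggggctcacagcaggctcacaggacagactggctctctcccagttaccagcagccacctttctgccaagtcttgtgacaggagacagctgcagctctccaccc

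A match of letters is a description of the window and not a bound site. Of the members called higher in PMA_ethanol than in Control (9 with a window) 2 carried NRF1 letters, of those called lower (19 with a window) 4, and of those not called (49 with a window) 14. In the same order ETS letters stood in 1, 1 and 5 windows, YY1 in 0, 2 and 5, ERR in 1, 0 and 7 and E-box in 1, 0 and 4. Among the genes that fell, unlike Cox7a2l, Ndufa6 and Sdha carried NRF1 letters and Sdhb carried ETS letters.

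The shallowest library, PMA_ethanol 3, held 2656680 reads in genes and the deepest, PMA_1002 5, held 28585995. The share of these reads that fell on respiratory chain genes was 0.762% ± 0.0453 (SD) for Control, 0.651% ± 0.0234 for PMA_ethanol and 0.690% ± 0.0271 for PMA_1002. Every PMA_ethanol library (0.62% to 0.674%) lay below every Control library (0.712% to 0.834%), and PMA_1002 (0.656% to 0.725%) overlapped both. This share is not scaled beyond library size. With library size alone the median log2 fold change in PMA_ethanol against Control was -0.297 for all genes tested and -0.287 for the members, so the lower share is not particular to them. With TMM-scaled library sizes, which set the CPM (read counts relative to library size) used below, complex I subunits summed to 2106 ± 119 CPM in Control, 1982 ± 52.8 in PMA_ethanol and 2009 ± 65.1 in PMA_1002. Complex II subunits summed to 378.3 ± 28.9, 338.6 ± 14.4 and 340.8 ± 12.1 CPM in the same order, and complex III subunits to 755.7 ± 45, 806.8 ± 31.7 and 775.2 ± 20.3. For complex IV the sums were 1189 ± 98.9, 1139 ± 52.3 and 1112 ± 79.2 CPM, and for complex V 2514 ± 147, 2677 ± 96.5 and 2549 ± 58.8. Control and the PMA groups overlapped in the sums of complexes I, III, IV and V, while all PMA_ethanol libraries (324.2 to 355.3 CPM) lay below all Control libraries (358.1 to 427) for complex II. Per kilobase of annotated exon, the highest Control levels were those of Atp5a1 (200 CPM per kb), the alpha subunit of ATP synthase, Cox6b1 (170), Atp5b (160), the catalytic beta subunit, and Cox6a1 (151). That length joins the exons of all transcripts of a gene, so the order depends on it. It is 4237 bases for Atp5b and 3135 for Atp5a1, whose longest transcripts have 1916 and 2674. Of the 97 genes, 95 passed the filter on low counts. Cox7b2 (1 read in all libraries together) and Cox8c (0 reads), isoforms known from testis, did not; for Cox8c a count of 0 allows up to 3 reads over all libraries. Sequence shared with other genes can lower or mix these counts: over stretches of 50 bases, 14 members shared more than 20% of their longest transcript with another gene, most of all Ndufaf2 (80.9%) and Sdhaf1 (69%), and the exons of 30 members overlap a gene on the opposite strand.

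The comparison of PMA_ethanol with Control asked which of these transcripts differ in the irritated ear. Among the 95 members tested, 11 rose and 21 fell, and 63 were not called (edgeR adjusted p under 0.05). That is 33.7% called, where 68.4% of all 14991 genes tested were called, 32.5% higher and 35.9% lower. Called changes of at least 1.5-fold numbered 10 among the members (10.5%), against 48.1% of all genes tested. The median log2 fold change was -0.06 for the members and -0.07 for all genes, and the interquartile range was 0.31 for the members and 1.18 for all genes. A 95% interval lying wholly within a 1.5-fold change in either direction was found for 68 of the 95. Restricting the background to genes with a mean of at least 10 CPM gave 71.1% called.

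How libraries are scaled decided much of the split between higher and lower. Upper-quartile scaling moved the median of all genes from -0.07 to -0.30 and gave 5 members higher and 64 lower, and library size alone also gave 5 and 64. The 5 that stayed higher under both were Ndufaf4, Ndufa4, Uqcrfs1, Uqcrq and Atp5g3, so the other 6 rises named below were lost there. Among all called genes the share that was higher went from 47.5% to 33.6% with upper-quartile scaling and 34.0% with library size alone. Relative to the median of all genes the members' median lay higher by 0.009 to 0.012 under the 4 ways of scaling.

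**Figure D1:**
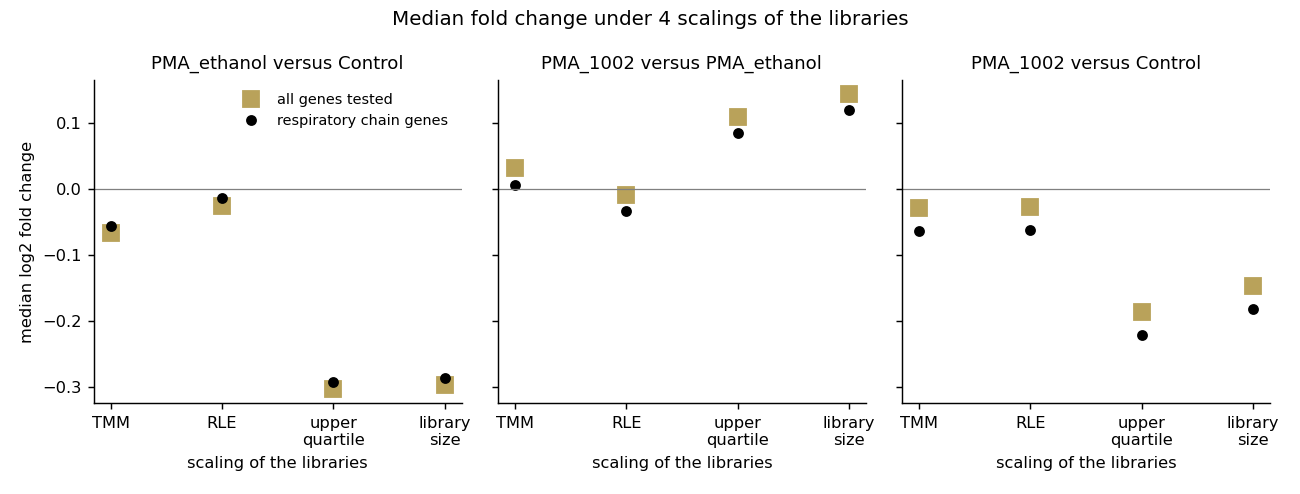
Median log2 fold change (vertical axis) of the 95 respiratory chain genes tested (dots) and of all 14991 genes tested (squares) in each comparison, under 4 ways of scaling the libraries (horizontal axis). The dots move with the squares, and the members' median differs from that of all genes by -0.035 to 0.012.

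In complex I, 2 subunits (Ndufa4 and Ndufb6) were higher and 11 lower of 38 in PMA_ethanol, with a median log2 fold change of -0.08. The largest change was the fall of Ndufa4l2 (chromosome 10, 127514967 to 127517154 on GRCm38), a hypoxia-inducible relative of Ndufa4. Its level was 26.4, 25.1, 21.4, 24.7 and 23.3 CPM in Control libraries 1 to 5. PMA_ethanol libraries 1 to 4 gave 4.82, 9.33, 5.39 and 9.73 CPM, and PMA_1002 ranged from 7.55 to 13.6 with a median of 9.93. All PMA_ethanol and all PMA_1002 libraries lay below all Control libraries, and those of the 2 PMA groups overlapped. The log2 fold change was -1.67 (SE 0.2, edgeR adjusted p = 1.13e-06) in PMA_ethanol.

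Ndufa4 itself (chromosome 6, 11900292 to 11907497), counted here by its symbol with complex I but now known as a subunit of complex IV, moved the other way. Control libraries held 126, 135, 115, 134 and 141 CPM, and PMA_ethanol libraries 197, 178, 261 and 164. PMA_1002 lay between 146 and 182 with a median of 167. Every library of either PMA group was above the highest Control library. Ndufa4 rose by 0.61 in log2 (SE 0.113, edgeR adjusted p = 0.000136).

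Ndufv3 (chromosome 17, 31520115 to 31531331), an accessory subunit of the flavoprotein part of the NADH-oxidising arm, fell. It stood at 75.8, 80.1, 60.5, 67.8 and 60.2 CPM in Control and at 35.5, 33.7, 27.0 and 42.3 in PMA_ethanol, with 42.2 to 50.9 (median 46.2) in PMA_1002. Control lay above both PMA groups without overlap, while the highest PMA_ethanol library reached into the PMA_1002 range. The log2 fold change in PMA_ethanol was -0.97 (SE 0.115, edgeR adjusted p = 9.87e-07). Other complex I subunits that fell included Ndufa6 (-0.62, SE 0.0862) and Ndufs7 (-0.32, SE 0.101), an iron-sulfur subunit near the ubiquinone site. The remaining 7, among them the core iron-sulfur subunit Ndufv2, had log2 fold changes as follows: Ndufb10 (-0.44), Ndufb11 (-0.39), Ndufc1 (-0.36), Ndufb3 (-0.35), Ndufa13 (-0.34), Ndufv2 (-0.23) and Ndufc2 (-0.22). Ndufb6, an accessory subunit of the membrane arm, rose by 0.31 (SE 0.0941, edgeR adjusted p = 0.00793). Core subunits with no call were Ndufs1, which carries iron-sulfur clusters of the NADH arm (0.01, 95% interval -0.17 to 0.18), Ndufv1, the flavin-binding subunit (0.02, -0.15 to 0.18), and Ndufs8 (-0.02, -0.20 to 0.16). With upper-quartile scaling Ndufs1, Ndufv1 and Ndufs8 were called lower, at -0.23, -0.22 and -0.26.

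Assembly factors of complex I, which build the enzyme but do not stay in it, gave 1 higher and 2 lower of 8. Ndufaf4 (chromosome 4, 24898083 to 24905001), needed early in assembly, had the largest rise of all members. Control libraries held 20.1, 13.6, 18.0, 20.7 and 19.5 CPM. PMA_ethanol libraries held 43.1, 39.2, 50.6 and 47.9, and PMA_1002 ranged from 26.3 to 57.7 with a median of 46.6. No library of either PMA group fell to the Control range, and PMA_1002 spread to both sides of PMA_ethanol. The rise was 1.29 in log2 (SE 0.186, edgeR adjusted p = 1.1e-05), with no stretch of 50 bases shared with another gene. Ndufaf3 fell by 0.68 and Ndufaf7 by 0.36.

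**Figure D2:**
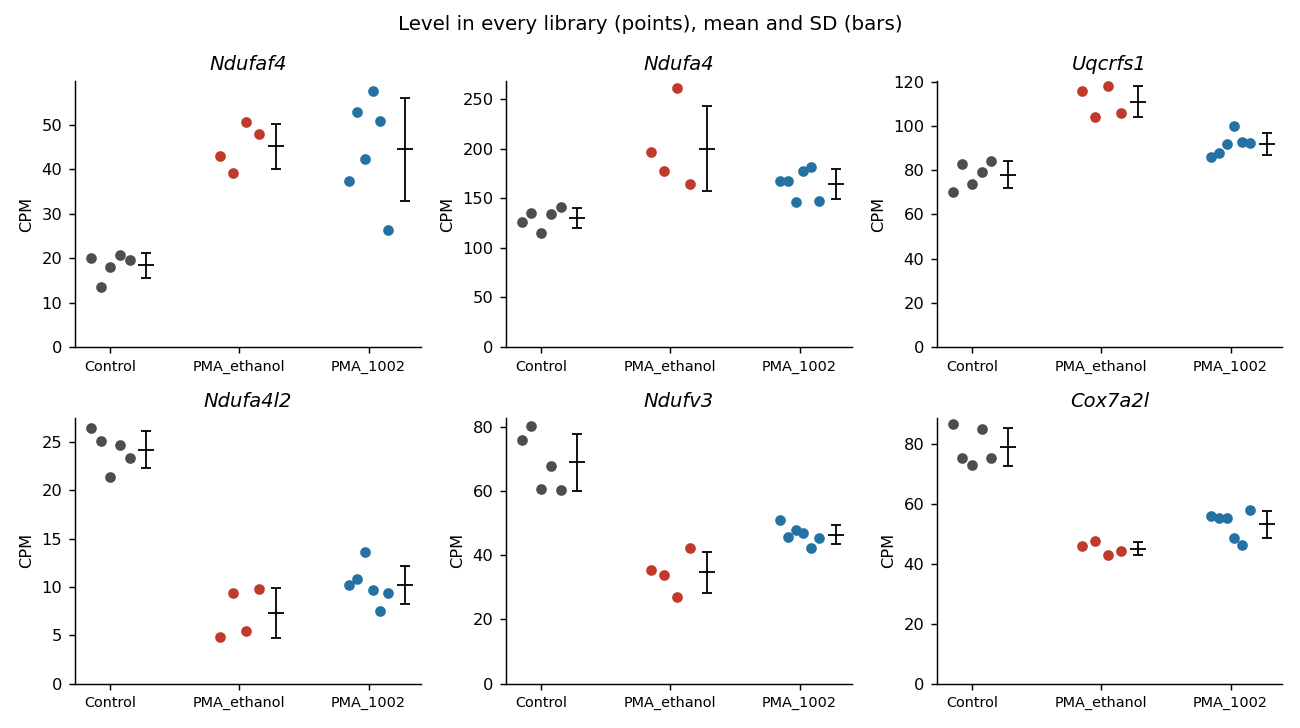
CPM (vertical axes, from 0) of 6 members in every library of Control, PMA_ethanol and PMA_1002 (points), with the mean and SD of each group (bars). Ndufaf4, Ndufa4 and Uqcrfs1 in the upper row lie higher in every PMA library than in any Control library, and Ndufa4l2, Ndufv3 and Cox7a2l in the lower row lie lower.

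In complex II, which is also an enzyme of the tricarboxylic acid cycle, none of the 4 subunits was called higher and 2 fell. Sdha, the flavoprotein subunit, went from 168 ± 11.6 CPM (n = 5) to 143 ± 8.79 (n = 4) and fell by 0.23 in log2 (SE 0.0797, edgeR adjusted p = 0.0154). Sdhb, the iron-sulfur subunit, changed by -0.20 (SE 0.0774, edgeR adjusted p = 0.027) with overlapping groups. Neither call held throughout: Sdhb lost it under 10 of 20 alternatives and Sdha under 3. Sdhb lost it without Control library 2 (-0.16, edgeR adjusted p = 0.0741), Control library 5 (0.0587), PMA_ethanol library 1 (0.0658) or PMA_ethanol library 2 (0.0718). Sdha lost it without PMA_ethanol library 1 (-0.21, 0.0524). The call of Sdhb also ended with RLE scaling (edgeR adjusted p = 0.072), no filter (0.158), only the 2 groups (0.0685) and the replicate block (0.0556). With DESeq2 its adjusted p was 0.0635. No filter ended the call of Sdha too (edgeR adjusted p = 0.0774). Leaving out the library of lowest muscle level in each group ended both. The membrane anchors Sdhc (-0.07) and Sdhd (-0.02) were not called, though with upper-quartile scaling they were, at -0.31 and -0.26. Of the 4 assembly factors, Sdhaf4, which acts on the flavoprotein before it joins Sdhb, fell from 7.85 ± 1.13 to 4.11 ± 0.677 CPM (log2 fold change -0.89, SE 0.166, edgeR adjusted p = 0.000132). Sdhaf2, which helps attach the flavin to Sdha, rose by 0.33 (SE 0.0995, edgeR adjusted p = 0.0072), a call lost with upper-quartile scaling and with library size alone.

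Complex III gave 2 higher and 0 lower of 8. Uqcrfs1 (chromosome 13, 30540308 to 30545362), the Rieske iron-sulfur protein, was at 70.2, 83.0, 73.6, 79.2 and 84.1 CPM in Control and at 116, 104, 118 and 106 in PMA_ethanol. PMA_1002 ranged from 86.0 to 99.9, with a median of 92.2. The 3 groups did not overlap, with PMA_1002 between the other 2. Uqcrfs1 rose by 0.51 (SE 0.0708, edgeR adjusted p = 6.95e-06). Uqcrq (chromosome 11, 53427922 to 53430831), a small subunit, held 67.6, 78.5, 70.3, 72.6 and 68.9 CPM in Control, 89.5, 93.4, 105 and 92.0 in PMA_ethanol and 76.6 to 85.2 (median 80.7) in PMA_1002. PMA_ethanol lay above both other groups, which overlapped. Uqcrq rose by 0.40 (SE 0.0669, edgeR adjusted p = 4.3e-05). The core protein Uqcrc1 stood at 187 ± 14.6 CPM in Control and 186 ± 6.48 in PMA_ethanol (log2 fold change -0.01, 95% interval -0.15 to 0.14), and was called lower at -0.25 with upper-quartile scaling and at -0.24 with library size alone. With TMM scaling and with DESeq2, 0 subunits of complex III were called lower, and 1 was lower at an unadjusted p under 0.05 in edgeR. Upper-quartile scaling and library size alone each called 5 of the 8 lower, and 1 was called lower without Control library 3.

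Among the 16 complex IV subunits tested, 2 rose and 2 fell. Cox7a2l (chromosome 17, 83501918 to 83517330), a relative of Cox7a known to join complexes III and IV into a supercomplex, was at 86.4, 75.1, 72.8, 84.9 and 75.1 CPM in Control. PMA_ethanol libraries gave 45.8, 47.4, 42.7 and 44.1, and PMA_1002 gave 46.2 to 57.8 with a median of 55.1. Control lay apart from both PMA groups, which overlapped each other. Cox7a2l fell by 0.80 (SE 0.0825, edgeR adjusted p = 1.83e-07), and 17.7% of its longest transcript is shared with a pseudogene. Cox6b2, an isoform known from testis, was at 2.42 ± 1 CPM in Control and 1.17 ± 0.411 in PMA_ethanol (-1.14, SE 0.339, edgeR adjusted p = 0.00644), with overlapping groups and 201 reads in all libraries. Without Control library 3 Cox6b2 did not pass the filter on low counts and was not tested. Passing the filter thus depended on Control, the group where it is higher, which limits what its p-values can show. Cox5a and Cox7a2, nuclear subunits found in most tissues, rose by 0.29 (SE 0.0743) and 0.27 (SE 0.0684), and both calls were lost with upper-quartile scaling (0.05 and 0.03) and with library size alone (0.06 and 0.03). Cox4i1, the regulatory subunit found in most tissues, was not called (224 ± 22.7 and 219 ± 12.5 CPM, log2 fold change -0.03) except with upper-quartile scaling (-0.27) and library size alone (-0.26).

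Complex V had 3 subunits higher and 3 lower of 17. Atp5g3 (chromosome 2, 73908447 to 73911326), 1 of 3 genes for the same c-ring subunit, was at 133, 162, 137, 146 and 141 CPM in Control and at 189, 174, 220 and 193 in PMA_ethanol. In PMA_1002 it ranged from 163 to 183 with a median of 166. All libraries of both PMA groups were above all Control libraries. Atp5g3 rose by 0.43 (SE 0.0775, edgeR adjusted p = 0.00011), while Atp5g2, a second c-ring gene, went from 29.7 ± 4.16 to 21.9 ± 1.06 CPM and fell by 0.44 (SE 0.113, edgeR adjusted p = 0.00231). The third, Atp5g1, was not called (0.11, SE 0.102). Atp5b and Atp5f1, a subunit of the peripheral stalk, each rose by 0.25, and both calls were lost with upper-quartile scaling (0.01 and 0.01) and library size alone (0.02 and 0.02). Falls were found for the gamma subunit Atp5c1 (-0.30, SE 0.0679) and for Atp5s, whose product is named as a coupling factor. Atp5s was at 7.46, 7.58, 5.7, 6.78 and 10 CPM in Control and at 3.18, 3.02, 2.90 and 4.58 in PMA_ethanol, with 4.27 to 4.79 (median 4.58) in PMA_1002. Every PMA library lay below every Control library, and Atp5s fell by 1.12 (SE 0.187, edgeR adjusted p = 4.95e-05) in PMA_ethanol. Atp5a1 (0.05) and Atp5o (-0.12), the latter a stalk subunit, were not called; upper-quartile scaling called Atp5a1 lower at -0.19 and Atp5o at -0.36.

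**Figure D3:**
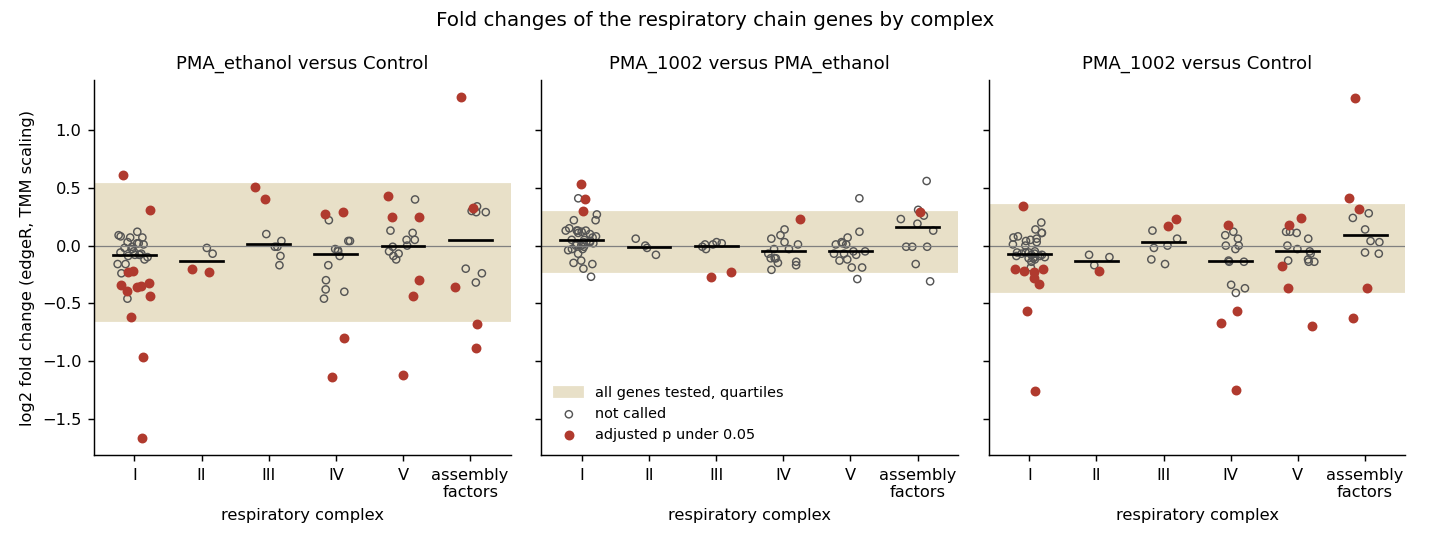
Log2 fold change (vertical axis) of each tested member, by complex and with assembly factors apart (horizontal axis), in the 3 comparisons. Filled dots passed an edgeR adjusted p of 0.05, open dots did not, short bars are medians and the band spans the quartiles of all 14991 genes tested; most members lie within the band, and in PMA_ethanol versus Control the lowest dot is Ndufa4l2 (-1.67) and the highest Ndufaf4 (1.29).

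Some members are paralogues that can replace each other in a complex. The log2 ratio of 2 such genes within a library does not depend on how libraries are scaled, and 7 pairs were compared by exact two-sided permutation tests, 21 tests in all with Benjamini-Hochberg adjustment. Ndufa4l2 relative to Ndufa4 had log2 ratios of -2.26, -2.42, -2.43, -2.43 and -2.59 in Control and of -5.33, -4.25, -5.54 and -4.06 in PMA_ethanol. PMA_1002 ranged from -4.59 to -3.42, apart from Control and overlapping PMA_ethanol. The mean fell by 2.37 in PMA_ethanol (exact p = 0.00794, adjusted 0.0417) and by 1.59 in PMA_1002 against Control (exact p = 0.00216, adjusted 0.0227), each the smallest p these group sizes allow. Atp5g2 relative to Atp5g3 went from -2.28 ± 0.212 (n = 5) in Control to -3.13 ± 0.109 (n = 4) in PMA_ethanol and -2.88 ± 0.144 (n = 6) in PMA_1002. Its differences from Control were -0.85 (exact p = 0.00794, adjusted 0.0417) and -0.60 (exact p = 0.00216, adjusted 0.0227), with no overlap of groups in either case. Between PMA_1002 and PMA_ethanol the 2 ratios differed by 0.78 (exact p = 0.0524, adjusted 0.138) and 0.25 (exact p = 0.0238, adjusted 0.0833). Tests of the other 5 pairs, among them Cox4i2 to Cox4i1 and the muscle pairs, gave adjusted p from 0.0833 to 0.914. Leaving out any 1 Control library raised the adjusted p of both pairs to between 0.1 and 0.12 for PMA_ethanol and to 0.05 for PMA_1002, since fewer arrangements are then possible. Without any 1 PMA_ethanol library it was 0.075 to 0.0938, and the differences stayed between -2.62 and -2.12 for the first pair and between -0.91 and -0.80 for the second.

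**Figure D4:**
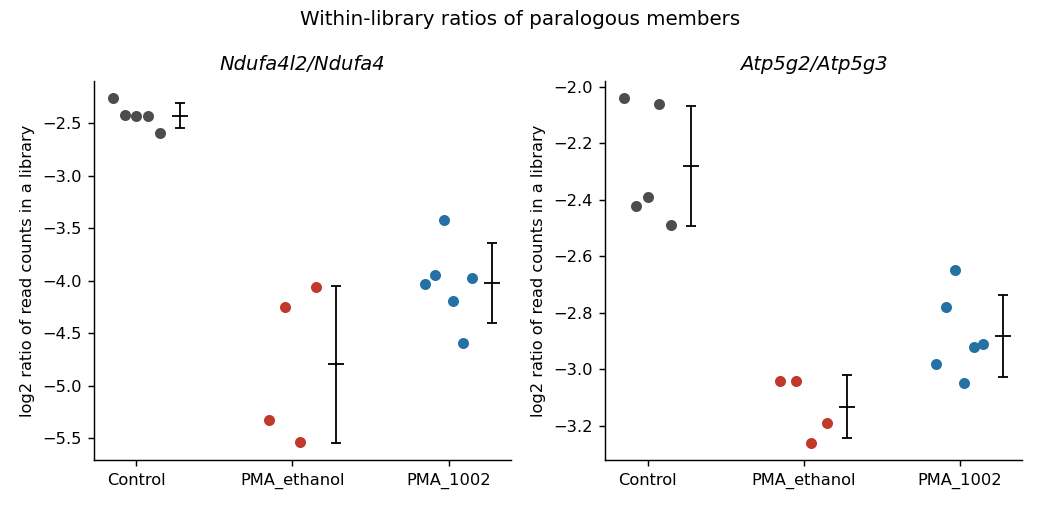
Log2 ratio of read counts within each library (vertical axes) for Ndufa4l2 to Ndufa4 and Atp5g2 to Atp5g3, by group, with mean and SD. Both PMA groups lie below Control in both plots, and PMA_1002 means (-4.02 and -2.88) lie between those of Control and PMA_ethanol.

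AA467197, also known as Nmes1, is a relative of Ndufa4 outside the symbol rule and was chosen after its values were seen. It held 6 reads in all 5 Control libraries, 178 in PMA_ethanol and 63 in PMA_1002. Means were 0.176 ± 0.175, 5.02 ± 2.24 and 1.01 ± 0.59 CPM. Log2 fold changes were 4.73 (SE 0.532, edgeR adjusted p = 5.46e-07) for PMA_ethanol against Control and -2.23 (SE 0.375, edgeR adjusted p = 0.000201) for PMA_1002 against PMA_ethanol. No Control library held more than 0.462 CPM, so AA467197 passed the filter on low counts through the PMA libraries, where it is higher. As it was also picked by its values, these p-values describe the difference and are no independent support. The fold against Control rests on the 6 Control reads.

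Muscle isoforms of complex IV varied among libraries of every group. Cox6a2 was at 23.1, 32.4, 9.23, 22.3 and 18.7 CPM in Control, at 18.6, 6.88, 28.2 and 24.5 in PMA_ethanol and at 9.07 to 28.6 (median 19.0) in PMA_1002. Groups overlapped almost fully, and Cox6a2, Cox7a1 and Cox8b were called in none of the comparisons by edgeR with TMM scaling and no covariate or by DESeq2, with 0 of them at an unadjusted p under 0.05. With the hair follicle level of each library as a covariate, edgeR called all 3 lower in PMA_1002 than in Control: Cox6a2 at -0.66 in place of -0.14 (adjusted p = 0.0475), Cox7a1 at -0.82 in place of -0.41 (0.0252) and Cox8b at -0.82 in place of -0.37 (0.0013). In PMA_ethanol against Control their log2 fold changes were -0.17 (SE 0.451), -0.38 (SE 0.398) and -0.30 (SE 0.357). Their levels followed the mean log2 CPM of 25 skeletal muscle markers across the 15 libraries. Pearson's r was 0.965 for Cox6a2, 0.946 for Cox7a1 and 0.930 for Cox8b (permutation p = 1e-05 each, the smallest 100000 resamples can give, adjusted 2e-05 over 6 relations). Spearman's rho was 0.946, 0.806 and 0.918 (permutation p = 1e-05, 0.00052 and 5e-05, adjusted 6e-05, 0.00104 and 0.00015). Without the 2 libraries farthest from the median muscle level, Control library 3 and PMA_ethanol library 2, r was 0.936, 0.890 and 0.886, and within the 6 PMA_1002 libraries it was 0.961, 0.887 and 0.884. For the isoforms found in most tissues, Cox6a1, Cox7a2 and Cox8a, r was -0.235, 0.262 and -0.259 (adjusted permutation p = 0.398 each), with rho of 0.00359, 0.321 and 0.0304 (permutation p = 0.992, 0.245 and 0.916), and without the same 2 libraries r was 0.114, 0.334 and 0.452. Within the 6 PMA_1002 libraries r was -0.145 for Cox6a1, 0.829 for Cox7a2 and 0.219 for Cox8a, so Cox7a2 there came near Cox7a1 and Cox8b. None of the 25 muscle markers was called in any comparison by edgeR with TMM scaling and no covariate or by DESeq2, nor was any at an unadjusted p under 0.05 (0 of 25), and their summed level ran from 2354 to 7323 CPM in Control, 1519 to 6997 in PMA_ethanol and 2628 to 5954 in PMA_1002.

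**Figure D5:**
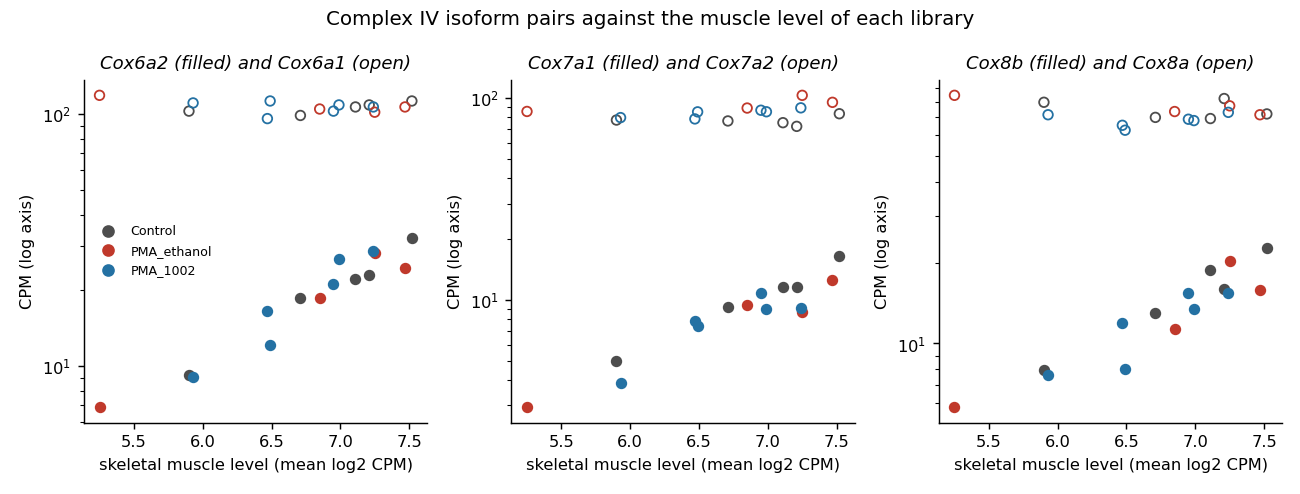
CPM (log axis) of 3 muscle isoforms of complex IV (filled) and of the isoforms found in most tissues (open) against the skeletal muscle level of each library (mean log2 CPM of 25 markers), coloured by group. Filled points climb with the muscle level in all 3 plots, from 6.88 to 32.4 CPM for Cox6a2, while over all 15 libraries the open points have r between -0.259 and 0.262.

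PMA_1002 against PMA_ethanol asked what differed when the peptide was given. Of the 95 members, 5 were higher and 2 lower, or 7.37% called, where 35% of all genes tested were called, 17% higher and 18% lower. With a fold of at least 1.5, 0 members and 17.1% of all genes were called. The members' median was 0.01 and that of all genes 0.03, with interquartile ranges of 0.18 and 0.53, and 81 of 95 intervals lay within a 1.5-fold change. Ndufv3 was higher by 0.40 (SE 0.111, edgeR adjusted p = 0.00911), and this call held under all 21 alternatives counted. For named members, fits that left out only 1 Control library were not counted in this comparison. Uqcrfs1 was lower by 0.27 (SE 0.0677, edgeR adjusted p = 0.00495) and Uqcrq by 0.23 (SE 0.0641, edgeR adjusted p = 0.00896); library size alone ended both calls and upper-quartile scaling that of Uqcrq. Ndufa6 ran from 43.2 to 52.3 CPM in PMA_ethanol and from 54.5 to 68.3 in PMA_1002 without overlap (0.30, SE 0.083, edgeR adjusted p = 0.0108). The assembly factor Ndufaf7 (0.29), Cox7a2l (0.23) and the membrane arm subunit Ndufb4 (0.53) were the other calls. Cox7a2l lost its call under 14 alternatives and Ndufb4, of whose longest transcript 37% is shared with other genes, under 12. Among complex II subunits 0 of 4 were called by edgeR or DESeq2 or had an unadjusted p under 0.05. Among complex V subunits edgeR with TMM scaling called 0 of 17, with 1 higher and 1 lower at an unadjusted p under 0.05. The direction of calls there followed the scaling: 2 were higher with upper-quartile scaling and with library size alone, and 2 lower with RLE scaling and with DESeq2. Leaving out PMA_ethanol library 4 gave 1 higher, and leaving out Control library 2, PMA_ethanol library 2 or PMA_1002 library 4 gave 1 lower. Ndufaf4 stood at 45.2 ± 5.08 CPM in PMA_ethanol and 44.6 ± 11.6 in PMA_1002 (log2 fold change -0.01, SE 0.174).

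Single libraries moved these small counts. The 5 calls of higher members became 2 without PMA_ethanol library 1, PMA_ethanol library 3 or PMA_1002 library 3, and 3 without PMA_1002 library 2 or 6. The 2 calls of lower members became 5 without PMA_ethanol library 2. RLE scaling gave 2 higher and 9 lower, upper-quartile scaling 12 and 1, and library size alone 17 and 0. Leaving out the library of lowest muscle level in each group, a choice made after the data were seen, gave 2 and 4.

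PMA_1002 against Control left 9 members higher and 17 lower, or 27.4% called against 55% of all genes tested (28.4% higher and 26.7% lower). A called fold of at least 1.5 was found for 6 members (6.32%), against 28.9% of all genes. The median was -0.06 for the members and -0.03 for all genes, and upper-quartile scaling gave 1 higher and 52 lower. Complex I subunits split into 1 higher and 8 lower of 38, complex III into 2 and 0 of 8, complex IV into 1 and 3 of 16 and complex V into 2 and 3 of 17. Ndufaf4 was higher by 1.28 (SE 0.171, edgeR adjusted p = 1.07e-05) and Ndufa4 by 0.34 (SE 0.103, edgeR adjusted p = 0.0101). Ndufa4l2 fell by 1.26 (SE 0.171, edgeR adjusted p = 1.11e-05), Cox6b2 by 1.25, Atp5s by 0.70, Cox4i2, an isoform induced by low oxygen, by 0.67, Sdhaf4 by 0.63, and Ndufv3 and Cox7a2l by 0.57 each. Cox6b2 did not pass the filter without Control library 3 or with only these 2 groups, so it was not tested there. Calls that ended with upper-quartile scaling and with library size alone were those of Ndufa4, Uqcrfs1 (0.23), Uqcrq (0.17), Cox5a (0.18), Atp5g3 (0.24), Atp5f1 (0.18), Sdhaf2 (0.32) and Ndufaf8 (0.41). Without Control library 3 the adjusted p was 0.0561 for Cox4i2, 0.0733 for Ndufaf8 and 0.0577 for Uqcrq. Without PMA_1002 library 1 it was 0.0647 for Atp5c1. Cox5a reached 0.0725 and 0.0946 without Control library 1 or 4, and 0.0626 and 0.0594 without PMA_1002 library 3 or 4. Uqcrq reached 0.0661 and 0.0589 without Control library 1 or 5. With hair level as covariate the edgeR adjusted p was 0.0524 for Cox5a, 0.0719 for Cox4i2 and 0.0746 for Uqcrq. With the replicate block it was 0.0833, 0.0604 and 0.0713 in the same order. Fitting only these 2 groups gave 0.0534 for Cox5a, and no filter gave 0.181 for Atp5c1. Across the 3 comparisons 59 of the 95 members (62.1%) were called in none, beside 26.2% of all genes tested.

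Other genes of oxidative metabolism were read from lists of textbook members. The 7 of 13 mitochondrially encoded subunits that could be tested gave 0 calls in every comparison by edgeR and DESeq2, and 0 at an unadjusted p under 0.05 (mt-Nd1 in PMA_ethanol: log2 fold change -0.10, SE 0.221), while 5 others were at 0 reads and mt-Atp6 at 1, so they were not measured. Of 12 further chain genes, 4 rose and 5 fell in PMA_ethanol: Gpd2, which feeds electrons from glycerol 3-phosphate, by 1.39 (SE 0.125), Cycs, cytochrome c, by 0.92 (SE 0.0973), and Atpif1, an inhibitor of ATP synthase, by -0.73 (SE 0.102). Assembly factors outside the symbol rule gave 8 higher and 14 lower of 38, with Cox10, a heme enzyme, at 1 and Acad9, a complex I factor, at -0.87. In the tricarboxylic acid cycle 3 rose and 5 fell of 17, among them Dlst (1.09), a component of 2-oxoglutarate dehydrogenase, and Idh2 (-1.13), the mitochondrial NADP isocitrate dehydrogenase. Regulators gave 7 higher and 3 lower of 15, with Pprc1, a coactivator of the PGC-1 family, at 2.17 (SE 0.119), Myc at 1.73 and Gabpb1 at 1.41. Mitochondrial ribosomal proteins gave 31 higher and 5 lower of 77, with Mrps25 at 1.65. They gave 34 and 2 in PMA_1002 against Control (46.8% called, beside 55% of all genes tested). Median log2 fold changes in PMA_ethanol against Control were -0.10, -0.09, -0.18, -0.03, 0.14 and 0.13 in the order of these lists, beside -0.07 for all genes. The shares called, in the same order, were 0%, 75%, 57.9%, 47.1%, 66.7% and 46.8%, beside 68.4% of all genes tested. In PMA_1002 against PMA_ethanol the counts of higher and lower were 0 and 0, 3 and 1, 6 and 1, 1 and 2, 1 and 3, and 4 and 5. That is 0%, 33.3%, 18.4%, 17.6%, 26.7% and 11.7% called, beside 35% of all genes tested.

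Markers of neutrophils, of monocytes and macrophages and of resting epidermis moved with the groups, while few or none of the adipocyte, hair follicle and muscle markers were called. Of 12 tested neutrophil markers 11 rose in PMA_ethanol, 11 were lower in PMA_1002 than in PMA_ethanol, and their summed level ran from 122.8 to 145.4 CPM in Control, 1803 to 3383 in PMA_ethanol and 438.4 to 771.7 in PMA_1002; the granule genes Ngp, Ltf, Camp and Elane were too low to test. Of 12 monocyte and macrophage markers 8 rose and 1 fell in PMA_ethanol, with sums of 655.4 to 836.3, 2159 to 2628 and 1123 to 1517 CPM. Of 11 markers of resting epidermis 9 fell, with sums of 33240 to 44720, 18930 to 23990 and 38350 to 45810 CPM. Calls in PMA_ethanol against Control covered 91.7% of the neutrophil, 75% of the monocyte and macrophage and 81.8% of the epidermis markers, beside 68.4% of all genes tested. Adipocyte markers gave 0 higher and 1 lower of 11 in PMA_ethanol against Control. In PMA_1002 against Control they gave 0 and 3 (27.3%, beside 55% of all genes tested). Their sums were 726.6 to 940.8, 637.2 to 805.3 and 665.8 to 824.4 CPM, and Ucp1 was too low to test. Hair follicle markers gave 0 and 1 of 16 and varied widely within groups (69.02 to 3951, 22.82 to 4101 and 14.91 to 1317 CPM). In bulk tissue, fewer cells of a type and less RNA per cell cannot be told apart, and the part of these shifts in the changes of respiratory chain genes was not tested.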

How the data were processed

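Ear RNA from 15 libraries was sequenced with a stranded kit, per the labels' protocols. The authors deposited raw read counts per gene for each library; per the submitters' processing notes the tools were FastQC 0.11.5, MultiQC 0.8, STAR 2.5 and HTSeq, with the build GRCm38. The sources used here do not give the annotation release or the strand option of counting. Reads that the deposited counts give to no gene (28.5% to 32.85% per library) were left out.

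Symbols and positions came from GENCODE M21. Counts were tested with edgeR 4.0.16 (R 4.3.3, limma 3.58.1): filterByExpr by group (14991 of 48795 genes kept), TMM scaling and the robust quasi-likelihood F test, over all 15 libraries, with Benjamini-Hochberg adjustment over all genes tested and a call at an adjusted p under 0.05. The common biological coefficient of variation was 0.185. CPM are relative to TMM-scaled library sizes, and log2 CPM used a prior count of 2. Depth ran from 2656680 to 28585995 reads in genes, and low counts limit precision most in the shallowest library. The procedure was tested on simulated data.

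Genes named were a fixed panel of core subunits and isoform pairs, up to 2 members of largest rise and fall per complex and comparison among those called, members that failed the filter, and up to 3 called genes of smallest adjusted p per related list and comparison; 1 gene of the panel is not reported here. Other genes named were chosen after their values were seen. Members, lists and tests were chosen with earlier results of these data known. Lists covered 5 sets of related metabolic genes, mitochondrial ribosomal proteins, and markers of skeletal muscle, adipocytes, neutrophils, monocytes and macrophages, resting epidermis and hair follicle. Alternatives were RLE and upper-quartile scaling, library size alone, 2 other filters, DESeq2 1.42.0, fits of the 2 groups compared, a replicate block, muscle or hair level as covariate, and leaving out each library. The labels do not say whether replicate numbers pair the libraries, and the main fit did not pair them.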

Additional observations from a re-analysis of the deposited data

Results flagged for a closer look

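In 138 groups of 4 to 6 libraries, 5 had 1 library set far apart from the others by Dixon's criterion; chance flags about 1 in 20 groups. Control library 2 stood high for Atp5a1 (722 CPM, others 588 to 620) and for Sdhaf4 (9.82 CPM, others 6.94 to 7.55). PMA_ethanol library 4 stood high for Atp5s (4.58 CPM, others 2.90 to 3.18). In PMA_1002, library 1 stood high for Cox6b2 (1.63 CPM, others 0.798 to 1.02). The log2 ratio of Atp5g1 to Atp5g3 was low in PMA_1002 library 3 (-2.29, others -2.07 to -1.96).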

How the results depend on the processing

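Scaling moved the counts most. In PMA_ethanol against Control, upper-quartile scaling and library size alone each gave 5 members higher in place of 11 and 64 lower in place of 21. In PMA_1002 against Control they each gave 1 higher in place of 9, with 52 and 40 lower in place of 17, and no filter gave 10 lower. In PMA_1002 against PMA_ethanol the 5 higher became 2 with RLE, 12 with upper-quartile scaling, 17 with library size alone, 3 without a filter, 3 with only these groups, 2 with hair level as covariate and 2 with DESeq2; the 2 lower became 9, 1 and 0 under those scalings, 4 with hair level and 8 with DESeq2. Leaving out the library of lowest muscle level in each group, chosen after seeing the data, gave 2 and 4. With the replicate block, 3 members were higher and 2 lower there, and 11 and 20 in PMA_ethanol against Control. Same-numbered libraries deviated together (correlation over 0.1) in 1 of 4, 1 of 4 and 0 of 5 pairs, from -0.533 to 0.579. The labels do not say whether such libraries are paired, and these correlations cannot settle it. Ratios with the block were -2.41 and -1.61 for Ndufa4l2 to Ndufa4 and -0.91 and -0.60 for Atp5g2 to Atp5g3 (exact permutation within numbers, smallest adjusted p = 0.375). With 4 or 5 pairs there are too few arrangements for an adjusted p under 0.05, so that test could not give a call. Leaving out 1 library gave 11 to 13 higher and 18 to 26 lower in PMA_ethanol against Control, 2 to 7 and 2 to 5 in PMA_1002 against PMA_ethanol, and 7 to 11 and 12 to 21 in PMA_1002 against Control. The ratios then ran from -2.62 to -2.12 and from -1.71 to -1.48 for Ndufa4l2 to Ndufa4, and from -0.91 to -0.80 and -0.65 to -0.54 for Atp5g2 to Atp5g3. Upper-quartile scaling and library size alone turned uncalled values in PMA_ethanol against Control into calls of the other sign for Atp5a1 (-0.19 and -0.19), Cox6a1 (-0.20 and -0.19), Cox8a (-0.19 and -0.19), Ndufs1 (-0.23 and -0.22) and Ndufv1 (-0.22 and -0.22); in PMA_1002 against Control upper-quartile scaling did so for Cox6a1 (-0.16) and Uqcrc1 (-0.16). Of the named members called, 14 of 21, 1 of 5 and 8 of 19 kept their call in the 3 comparisons under all alternatives counted in which they were tested. The 14 and the 8 include Cox6b2, which failed the filter in some alternatives. It was tested in 19 and 20 alternatives, where other named members had 20 and 22. The cause of these changes was not tested, beyond the shift that scaling gives all genes.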
